A study of Caenorhabditis elegans with 6 samples.

Results

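The mitochondrial genome of C. elegans carries a small set of protein genes. Of these, 10 are described here as they appeared in RNA from immunoprecipitates of a ribosomal protein tagged in neurons. The 10 genes were chosen by identifier, WBGene00010957 and WBGene00010959 to WBGene00010967, and all 10 were found among the 5739 genes of the deposited table. By coding start they carry the RefSeq symbols ND1, ND2, ND3, ND4, ND5, ND6, COX1, COX2, COX3 and ATP6. The annotation of WBcel235 has 12 protein genes on the mitochondrial genome, and the other two, ND4L and CYTB, were outside the selection and are given below for comparison. The libraries came from 2 groups of worms at the L4 stage, both with a tagged large-subunit ribosomal protein, RPL-18, expressed from the pan-neuronal rgef-1 promoter as a single-copy insertion. The first group, alg-2(ok304), carries the ok304 allele of alg-2, which encodes an Argonaute protein that loads miRNAs, and has 3 libraries. The second group, wild type, has the endogenous alg-2 gene and also has 3 libraries. The question put by the design was how the loss of ALG-2 alters the RNA on neuronal ribosomes. The strain list writes a FLAG tag for wild type and an HA tag for alg-2(ok304), while the beads were against FLAG, and the headers of the alg-2(ok304) columns name a knockout of alg-1. The labels are followed here. Lysates were made from whole animals, and the promoter of the transgene is what selects for neurons.

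Mitochondrial protein genes encode core subunits of the respiratory chain and of ATP synthase. The ND genes encode subunits of complex I, which takes electrons from NADH, the COX genes encode the catalytic core of complex IV, which passes electrons to oxygen, and ATP6 encodes a membrane subunit of ATP synthase through which protons flow. In animals their mRNAs are made inside the organelle from long precursor transcripts, carry poly(A) tails and are translated by mitochondrial ribosomes, which are distinct from the cytoplasmic ribosomes that contain RPL-18. All other subunits of these complexes are encoded in the nucleus and translated in the cytoplasm. Neurons are known for a high demand for mitochondrial ATP.

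The columns of the table were not read counts. Within a group the ratio of 2 libraries was the same for every gene, to within 8.8e-09 of its value, so that each column is a fitted level of the group times a factor of the library. The values are called fitted reads. They hold no spread between replicates, so no standard deviation is given, no test could be run, and no difference below is set against replicate error. The depth of sequencing is unknown. Fitted reads of all genes summed to between 4769250 and 10706566 in the alg-2(ok304) libraries and to between 11656552 and 17692391 in the wild-type libraries. Ribosomal RNA genes held 85.1% of them in alg-2(ok304) and 97.9% in wild type. alg-2 (WBGene00000106) had 2.51, 2.95 and 5.65 fitted reads in the alg-2(ok304) libraries and 4.24, 5.92 and 6.43 in the wild-type libraries. Its log2 ratio was -1.92 on the scale described below, between -3.09 and -1.53 on 6 other scales and 0.52 when scaled to the sum of every listed gene. The value rests on few fitted reads, and reads of the gene outside a deleted stretch are counted too. Of the markers read for 5 tissues, 8 of 20 were listed for neurons, 15 of 15 for body wall muscle, 14 of 15 for hypodermis, 10 of 15 for intestine and 5 of 15 for germline. rgef-1 was among the neuronal markers not listed, and egl-21, eat-4 and sbt-1 were listed at 0 in wild type. As a share of the fitted reads of nuclear protein-coding genes, the neuronal markers summed to 0.0117% in alg-2(ok304) against 0.00873% in wild type, and the body wall muscle markers to 0.913% in alg-2(ok304) against 2.80% in wild type, mostly from ttn-1. For hypodermis these sums were 0.199% in alg-2(ok304) and 0.707% in wild type. For intestine they were 0.116% in alg-2(ok304) and 0.184% in wild type, and for germline 0.00349% in alg-2(ok304) and 0.00775% in wild type. The neuronal sums rest on only 83.7 fitted reads in alg-2(ok304) and 11.7 in wild type. Those of germline rest on 24.9 in alg-2(ok304) and 10.4 in wild type. The part in the mitochondrial values of RNA from other tissues, or of RNA not bound to tagged ribosomes, was not tested. In such bulk samples fewer cells of a type and less RNA per cell cannot be told apart.

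All 10 mitochondrial protein genes were above 0 in every library and were among the well covered genes of the table. COX1, COX2 and COX3 are the complex IV genes. COX1 (WBGene00010964; mitochondrial genome, 7827 to 9428 of WBcel235, plus strand, coding from 7845 to 9419), whose product is the subunit that reduces oxygen, had 1298, 1523 and 2913 fitted reads in the alg-2(ok304) libraries and 755, 1055 and 1146 in the wild-type libraries. COX2 (WBGene00010965; 9649 to 10348), whose product receives electrons from cytochrome c, had 1066, 1251 and 2393 fitted reads in alg-2(ok304), against 362, 505 and 549 in wild type. COX3 (WBGene00010962; 5678 to 6449), which encodes the other core subunit of the enzyme, had 509, 598 and 1144 fitted reads in alg-2(ok304), against 230, 321 and 349 in wild type. In raw fitted reads the alg-2(ok304) libraries stood above the wild-type libraries with no overlap for all 10 genes, as they did for 77.9% of the 4786 genes above 0 in a group, while 12.2% were lower with no overlap. Nothing is read from this about the 10 genes, since the raw values carry the unequal totals and the columns of a group are proportional.

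ATP6 (WBGene00010960; 2634 to 3235) had 784, 920 and 1760 fitted reads in the alg-2(ok304) libraries and 249, 347 and 377 in the wild-type libraries. It was the only subunit of ATP synthase among the 10 genes.

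The 6 complex I genes all encode subunits of its membrane arm. ND6 (WBGene00010957; 113 to 549) had 461, 541 and 1034 fitted reads in alg-2(ok304), against 133, 185 and 201 in wild type. ND3 (WBGene00010966; 11356 to 11691), the shortest of the 10 genes, had 110, 129 and 246 fitted reads in alg-2(ok304), against 22.4, 31.3 and 34.1 in wild type. ND5 (WBGene00010967; 11691 to 13272), which encodes one of the large proton-pumping subunits and follows ND3 directly, had 97.6, 115 and 219 fitted reads in alg-2(ok304), against 40.4, 56.4 and 61.3 in wild type. Per kb of annotated exon, ND3 stood at 5.29 times the level of ND5 in alg-2(ok304) and at 2.62 times in wild type, a ratio within each library that does not depend on its size. Of the other complex I genes, ND1 (WBGene00010959; 1763 to 2635) summed to 814 fitted reads over the alg-2(ok304) libraries and 211 over the wild-type libraries, and ND4 (WBGene00010963; 6506 to 7808, coding up to 7732 and then a short 3′ UTR), another pumping subunit, to 922 over the alg-2(ok304) libraries and 255 over the wild-type libraries. ND2 (WBGene00010961; 3389 to 4269), also of the pumping arm, summed to 363 in alg-2(ok304) and 102 in wild type.

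**Figure D1:**
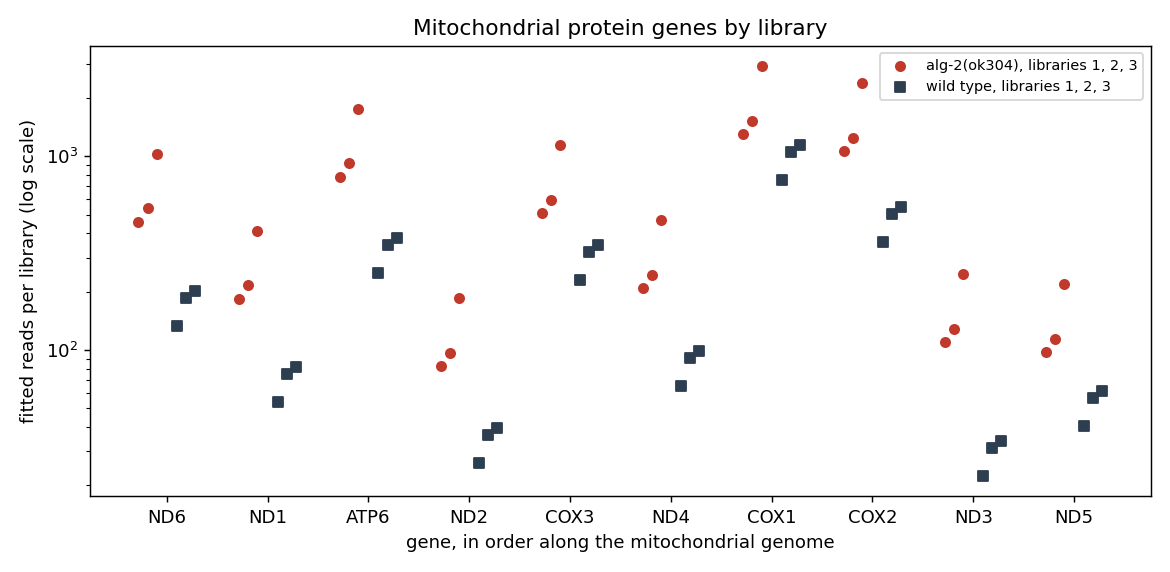
Fitted reads of each gene in each library on a log axis, with the 3 alg-2(ok304) libraries as circles and the 3 wild-type libraries as squares. COX1 reaches 2913 in alg-2(ok304) and 1146 in wild type, the values are not divided by gene length, and every gene repeats the same spacing of libraries because the values are fitted.

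To compare levels between genes, fitted reads were divided by the annotated exon length in kb. Per kb the 10 genes differed among themselves by 24.7-fold in alg-2(ok304) and by 20.2-fold in wild type. In alg-2(ok304) the order was COX2, ATP6, ND6, COX1, COX3, ND3, ND1, ND4, ND2 and ND5, with 6728 fitted reads per kb for COX2 and 273 for ND5. In wild type it was COX2, COX1, ATP6, ND6, COX3, ND3, ND1, ND4, ND2 and ND5, with 2024 for COX2 and 99.9 for ND5. The orders differ by the place of COX1 alone, at rank 4 in alg-2(ok304) and rank 2 in wild type, and the 9 genes without it kept 1 order. COX2 stood at 1.88 times the level of COX1 per kb in alg-2(ok304) and at 1.10 times in wild type, and ATP6 at 1.61 times that level in alg-2(ok304) and 0.876 times in wild type. With no spread at hand, it cannot be said which neighbours in these orders differ beyond error. The closest in wild type were ND6 and COX3, at a ratio of 1.02, and in alg-2(ok304) COX2 and ATP6, at 1.17. Among the 10 genes the widest step in both groups lay between COX3 and ND3, at 2.02-fold in alg-2(ok304) and 4.46-fold in wild type. This step depends on the selection. ND4L, outside it, stood at 3055 per kb in alg-2(ok304), above COX3 at 2916. In wild type ND4L at 469 and CYTB at 279 lay between COX3 at 1167 and ND3 at 261. Across the 10 genes the log2 levels per kb in the groups had a Pearson correlation of 0.97 and a Spearman correlation of 0.96, as a description over genes that share the libraries.

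Set beside the 5465 protein-coding genes listed, the mitochondrial genes stood near the top per kb. Of the 10, 8 were among the first 100 in alg-2(ok304) and 8 in wild type. COX2 ranked 9 in alg-2(ok304) and 5 in wild type, COX1 ranked 15 in alg-2(ok304) and 8 in wild type, and the lowest, ND5, ranked 161 in alg-2(ok304) and 154 in wild type. The middle rank of these protein-coding genes would be 2733. In wild type only 2954 of all 5739 genes listed were above 0, so that rank lies near or among the genes at 0.

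**Figure D2:**
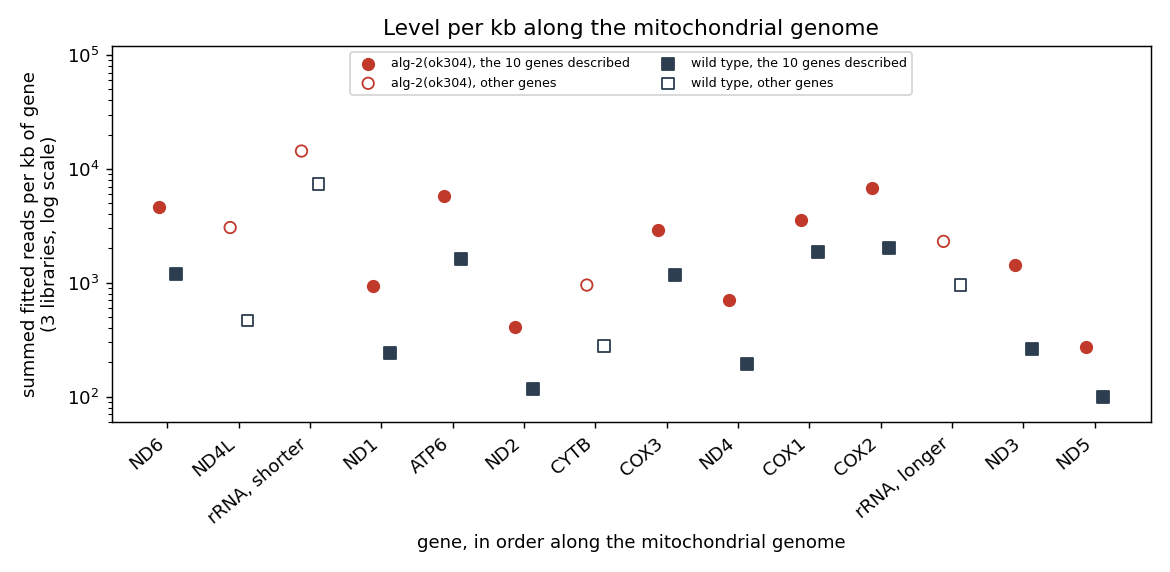
Summed fitted reads of 3 libraries per kb of gene on a log axis, with genes in their order along the mitochondrial genome, circles for alg-2(ok304) and squares for wild type. Filled marks are the 10 genes and open marks ND4L, CYTB and both rRNA genes. COX2 is the highest protein gene (6728 in alg-2(ok304), 2024 in wild type), and the height of a group as a whole depends on its total.

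The make-up of the 10 genes does not depend on any scale between the groups, since each gene is set against the sum of all 10 in the same group. Shares are of fitted reads, not divided by length, and are compared for each gene between groups. COX1 held 27% of these fitted reads in alg-2(ok304) and 39.0% in wild type. This share was lower by the largest number of points of any gene. COX2 held 22.2% in alg-2(ok304) and 18.7% in wild type, ATP6 held 16.3% in alg-2(ok304) and 12.8% in wild type, and ND6 9.60% in alg-2(ok304) and 6.85% in wild type. COX3 had 10.6% in alg-2(ok304) and 11.9% in wild type, and ND5 had 2.03% in alg-2(ok304) and 2.09% in wild type, so that these and COX1 were the genes with a lower share in alg-2(ok304). ND3 had the largest relative difference, 2.28% in alg-2(ok304) and 1.16% in wild type, which is 1.97 times the share. By complex, the 3 COX genes held 59.9% in alg-2(ok304) and 69.6% in wild type, and the 6 ND genes 23.8% in alg-2(ok304) and 17.6% in wild type.

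**Figure D3:**
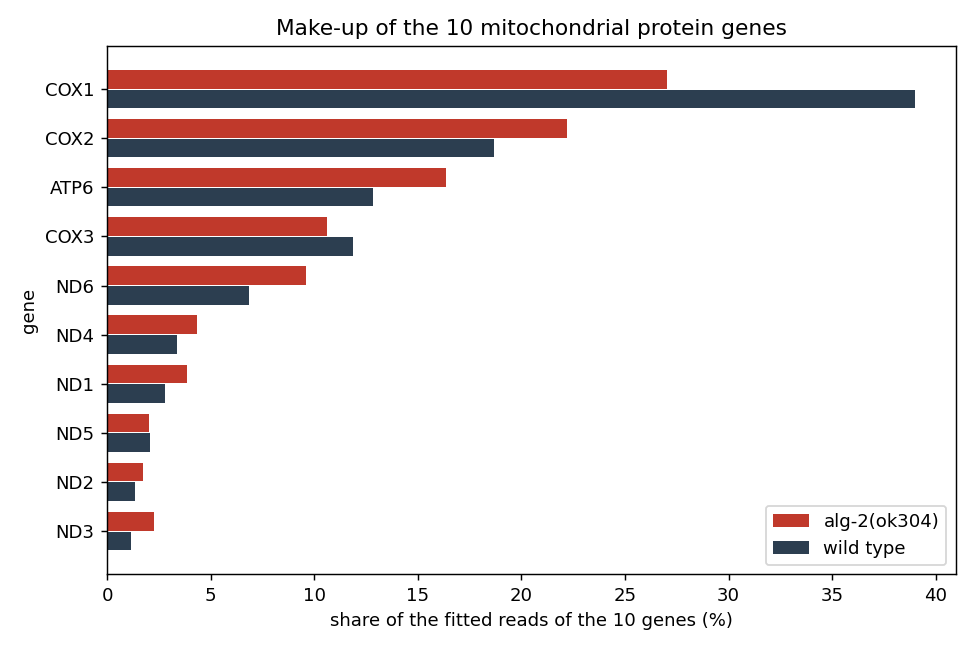
Share of each gene in the fitted reads of the 10 genes, in percent, with the alg-2(ok304) bar above the wild-type bar and genes ordered by the wild-type share. COX1 is at 27% in alg-2(ok304) and 39.0% in wild type, while ND3, at the foot, is at 2.28% in alg-2(ok304) and 1.16% in wild type.

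Between the groups, log2 ratios of alg-2(ok304) over wild type were taken from fitted reads summed over the libraries of a group. They are given relative to the median ratio of 824 genes with at least 10 fitted reads in both groups, 1.42 on the log2 scale, with 0.5 fitted reads added on the common scale. On this scale 8 of the 10 genes were higher and 2 lower in alg-2(ok304), and the ratios ran over 1.50 log2 units, from -0.47 for COX1 to 1.04 for ND3. ND6 had a log2 ratio of 0.55, ND1 of 0.52, ND4 of 0.43, ND2 of 0.41, ATP6 of 0.41, COX2 of 0.31, ND5 of 0.03 and COX3 of -0.10. A fold of at least 2 was reached by 1 gene, ND3, in the higher direction and by 0 genes in the lower direction. Of the 4786 genes above 0 in a group, 59.3% were at least 2-fold higher and 18.5% at least 2-fold lower in alg-2(ok304). Of the 182 genes with at least 100 fitted reads in both groups, which include each of the 10 genes but ND3, these shares were 29.7% and 25.8%, and 0 of the 9 genes reached 2-fold in either direction. Of the 2885 genes with at least 10 fitted reads in a group, they were 58.5% and 17.7%. At 4-fold, which 0 of the 10 genes reached in either direction, the shares over the 4786 genes were 39.1% higher and 12.9% lower. ND3 was near the 2-fold limit, and it no longer reached it on any scale given below that lowered the ratios. Leaving out any 1 alg-2(ok304) library put its log2 ratio between 0.85 and 0.94, and any 1 wild-type library between 1.15 and 1.19. The columns of a group are proportional, so this only changes which genes set the scale and the weight of the pseudocount. It does not test ND3. The median log2 ratio of the 10 genes was 0.41, beside a median of 1.31 over the 4786 genes and of 0.24 over the 182 genes. Of the 4786 genes, 4491 were above 0 in alg-2(ok304) and 2954 in wild type. Where a group is at 0 the ratio is set by the pseudocount, and such genes enter the shares and the median over the 4786 genes. Nothing is read from these comparisons as particular to the 10 genes, because no test was possible.

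The direction of any single gene depends on the scale. Scaled to the sum of every listed gene, all 10 genes were higher in alg-2(ok304), at log2 ratios between 2.07 and 3.57. With the totals outside ribosomal RNA and outside the genes within 2 kb of a nuclear ribosomal RNA gene, all 10 were lower, between -1.69 and -0.18. In terms of shares, the 10 genes held 0.101% of all fitted reads in alg-2(ok304) and 0.0166% in wild type. Outside ribosomal RNA they held 0.674% in alg-2(ok304) against 0.793% in wild type. With the genes beside nuclear ribosomal RNA left out as well, they held 0.784% in alg-2(ok304) against 1.75% in wild type. These neighbours took 14.0% of the fitted reads outside ribosomal RNA in alg-2(ok304) and 54.8% in wild type. Set against nuclear protein-coding genes, the 10 genes came to 2.97 per 100 fitted reads in alg-2(ok304) and 5.66 per 100 in wild type. Apart from the pseudocount, a change of scale moves all genes alike, and ND3 stood above COX1 on each of these scales.

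The log2 ratio was set against gene length. Over the 10 genes its Spearman correlation with the length of the annotated gene was -0.61 and its Pearson correlation with log2 length -0.75, a description across genes that share libraries and overlap in sequence. Without COX1 and ND3, the ends of the range, these were -0.24 and -0.40 over 8 genes, and without COX1 alone -0.47 and -0.67 over 9 genes. With ND4L and CYTB added, over all 12 mitochondrial protein genes, they were -0.69 and -0.83. Over 732 nuclear protein-coding genes with at least 10 fitted reads in both groups the Spearman correlation with length was -0.16. The genes abut closely. Of the 10, 8 overlap an annotated neighbour, by 1 base for ND6 and ND4L and for ND3 and ND5, by 2 bases for ND1 and ATP6, and by up to 28 bases for ND2 and the tRNA gene before it, and the widest gap, of 18 bases, lies between ND4 and COX1. How fragments that reach across such borders were counted is not given in the sources used here. Its part in these values was not tested.

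**Figure D4:**
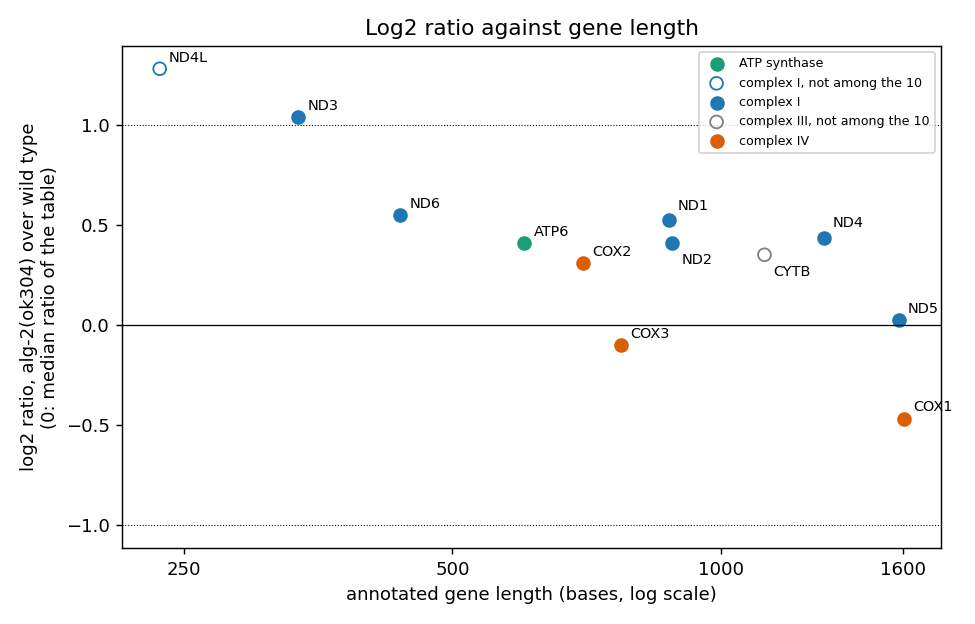
Log2 ratio of alg-2(ok304) over wild type against annotated gene length on a log axis, for the 10 genes (filled, by complex) and for ND4L and CYTB (open). The line at 0 is the median ratio of the 824 genes with at least 10 fitted reads in both groups, and dotted lines mark 2-fold. On this scale the median over the 4786 genes above 0 in a group is 1.31. ND3 is at 1.04 and COX1 at -0.47, and another scale moves all points up or down together.

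The rest of the mitochondrial genome was read for comparison. All 36 of its annotated genes lie on the plus strand. ND4L (WBGene00010958; 549 to 783), a further complex I subunit and shorter than any of the 10 genes, summed to 718 fitted reads in alg-2(ok304) and 110 in wild type, a log2 ratio of 1.28. It lies between ND6, at 0.55, and a pair of tRNA genes that had 121 and 95.5 fitted reads in alg-2(ok304), against 12.1 and 9.05 in wild type. CYTB (WBGene00000829; 4504 to 5621), cytochrome b of complex III, summed to 1068 fitted reads in alg-2(ok304) and 312 in wild type, a log2 ratio of 0.35, within the range of the 10 genes. The shorter of both mitochondrial rRNA genes (WBGene00014454; 898 to 1593) had 9979 fitted reads in alg-2(ok304) and 5137 in wild type, a log2 ratio of -0.46, close to that of COX1. The longer (WBGene00014472; 10403 to 11354) had 2197 in alg-2(ok304) and 907 in wild type, a log2 ratio of -0.14. The 10 protein genes together stood at 1.74 times the summed fitted reads of both rRNA genes in alg-2(ok304) and at 1.25 times in wild type. Of 22 mitochondrial tRNA genes, 9 were listed, with 719 fitted reads in alg-2(ok304) and 199 in wild type, and their log2 ratios ran from -2.06 to 1.94.

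Nuclear genes for the same complexes are translated on cytoplasmic ribosomes. Those looked up here were lower per kb in complexes I and IV and in ATP synthase. Of 46 nuclear subunits and cytochrome c genes looked up, 43 were listed and 42 were above 0 in a group, together with 2483 fitted reads in alg-2(ok304) and 770 in wild type, beside 21210 in alg-2(ok304) and 7580 in wild type for the 10 mitochondrial genes. In complex IV the median level per kb was 3579 for the mitochondrial genes and 98.5 for 7 nuclear genes in alg-2(ok304), against 1845 and 21.2 in wild type. In complex I these medians were 820 and 14.7 in alg-2(ok304) against 219 and 2.56 in wild type. The lowest of the 6 mitochondrial genes of complex I was ND5, at 273 per kb in alg-2(ok304) and 99.9 in wild type. It stood above the highest of the 14 nuclear genes listed in each group, at 144 per kb in alg-2(ok304) and 8.12 in wild type. The sum of the mitochondrial COX genes was 21.3 times that of the nuclear complex IV genes in alg-2(ok304) and 58.4 times in wild type, a ratio of summed fitted reads, not divided by length, that no scale between groups alters. For complex I the sums stood at 13.5 times in alg-2(ok304) and 29.3 times in wild type, and for ATP6 over 9 nuclear subunits of ATP synthase at 4.06 times in alg-2(ok304) and 3.1 times in wild type. The sums cover only the nuclear genes looked up, so the size of each ratio depends on that list. The mitochondrial sum of complex I leaves out ND4L. The balance was lower in alg-2(ok304) for complexes I and IV and higher for ATP synthase. It rests on small nuclear sums in wild type. These were 45.4 fitted reads over 14 complex I genes, 90.3 over 7 complex IV genes and 313 over 9 genes of ATP synthase. With no spread at hand, it cannot be said whether the balance differed between the groups beyond error.

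The nuclear genes also scattered more. Of the 42, 21 were at least 2-fold higher in alg-2(ok304), 7 at least 2-fold lower and 14 between. Over the 4786 genes above 0 in a group, 59.3% were at least 2-fold higher and 18.5% at least 2-fold lower. The counts are therefore not read as particular to these nuclear genes. Their median log2 ratio was 0.91, or 0.31 over the 35 genes above 0 in both groups. The 7 others were listed at 0 in wild type, have no fold of their own and count among the 21 through the pseudocount. In complex IV, cox-6B, a small peripheral subunit, had 216 fitted reads in alg-2(ok304) and 12.5 in wild type, a log2 ratio of 2.66, and cox-5A, another accessory subunit, had 87.4 in alg-2(ok304) and 15.8 in wild type, a log2 ratio of 1.03. In ATP synthase, asg-2, a membrane-part subunit, had 219 fitted reads in alg-2(ok304) and 28.1 in wild type (1.53 on the log2 scale), while atp-1, the alpha subunit of the catalytic part, had 210 in alg-2(ok304) and 131 in wild type (-0.74). In complex I, ndub-2, an accessory subunit, had 87.8 fitted reads in alg-2(ok304) and 2.11 in wild type, and nduf-7, an iron-sulfur core subunit, had 73.5 in alg-2(ok304) and 8.98 in wild type, log2 ratios of 3.78 and 1.58. In complex III, ucr-1 and ucr-2.1, core proteins of the complex, had log2 ratios of 0.22 and 0.04. Complex II, which has no mitochondrially encoded subunit, held the lowest ratio, that of sdhb-1, its iron-sulfur subunit, at 23.9 fitted reads in alg-2(ok304) and 99.3 in wild type (-3.43), while sdhd-1 was listed at 22.5 in alg-2(ok304) and at 0 in wild type. cyc-2.1, cytochrome c, had 116 fitted reads in alg-2(ok304) and 34.8 in wild type (0.31), and cyc-2.2 was listed at 0 in both. Most of these genes had so few fitted reads that a fold rests on little.

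**Figure D5:**
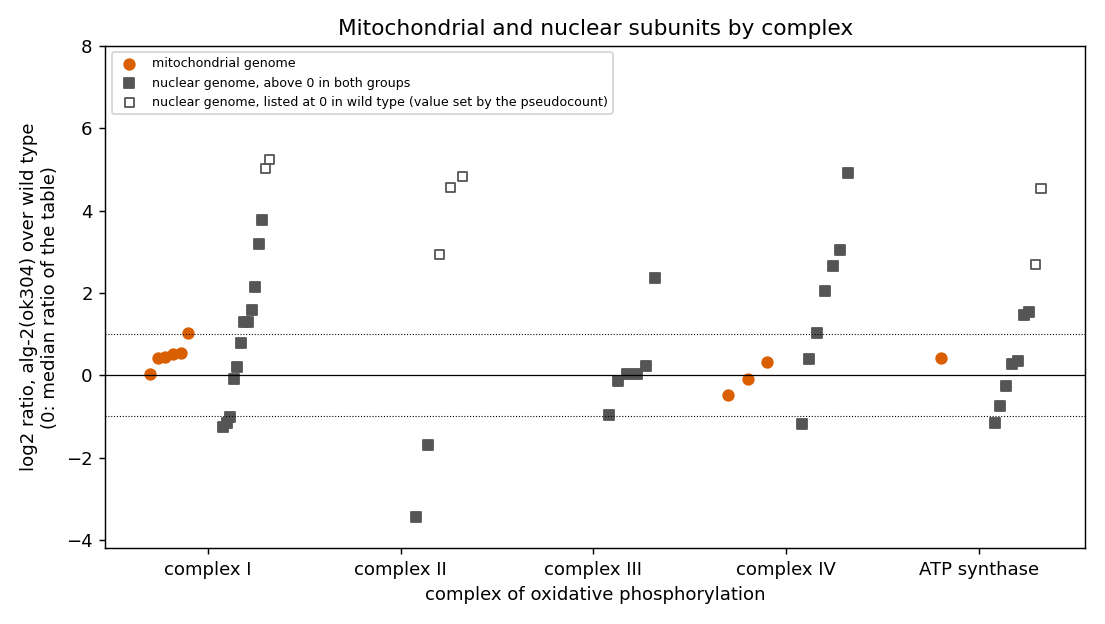
Log2 ratio of alg-2(ok304) over wild type for each subunit, by complex, with mitochondrially encoded genes as circles and nuclear genes as squares, open where the gene was listed at 0 in wild type and the value is set by the pseudocount. The mitochondrial genes lie between -0.47 and 1.04, and the nuclear ones reach from -3.43 to values above 5 that rest on the pseudocount.

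Genes that serve the expression of the mitochondrial genome were sparse. Of 70 genes named as mitochondrial ribosomal proteins (mrpl and mrps), 40 were listed and 36 were above 0, with 709 fitted reads in alg-2(ok304) against 170 in wild type. By size of change, 23 of the 36 were at least 2-fold higher in alg-2(ok304), 3 at least 2-fold lower and 10 between. Over the 4786 genes above 0 in a group, 59.3% were at least 2-fold higher and 18.5% at least 2-fold lower. The median log2 ratio was 2.09 over the 36 genes and 0.17 over the 19 above 0 in both groups. A further 16 were listed at 0 in wild type only, where the ratio is set by the pseudocount. Of 5 genes for the upkeep and transcription of mitochondrial DNA, 2 were listed. rpom-1, the mitochondrial RNA polymerase, had 25.1 fitted reads in alg-2(ok304) and 1.86 in wild type, and hmg-5, a packaging protein of mitochondrial DNA, was listed at 10.7 in alg-2(ok304) and at 0 in wild type.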

How the data were processed

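Polysome immunoprecipitates of 3 alg-2(ok304) and 3 wild-type samples were sequenced. The authors used cutadapt (2.10) for trimming, HISAT2 for alignment to WBcel235, featureCounts (Subread 2.0.0) for counting over Ensembl release 96 genes and edgeR (version 3.11) for the comparison, and kept genes above 1 CPM in at least 2 samples. Only 4786 of the 5739 genes listed were above 0 in a group, so a listed gene need not be above 1 CPM in the fitted reads. The deposited table holds an average log2 CPM per gene, used only to try the planned scale, and library columns that are fitted values. It also holds a p-value and an FDR of the authors' comparison, which were not used. The planned count test was therefore not run. The planned scale, from the deposited average log2 CPM, could not be fitted (median residual 48.9% over 590 genes), and the planned fallback, the median ratio of 824 genes, was used. Columns left unused for want of a label numbered 0. Symbols and positions came from Ensembl release 115 and RefSeq for WBcel235 (5733 of 5739 identifiers matched). All 10 genes, both mitochondrial rRNA genes and the 2 highest nuclear genes per complex were to be named. The members and lists were chosen with earlier results of these data known. The depth is unknown, and no interval is given. Scripts were tested on simulated data. Alternatives were other scales, pseudocounts, a minimum level, a 4-fold limit and leaving out each library. Python 3.11.15, numpy 2.4.6, pandas 2.3.3 and matplotlib 3.10.9 were used.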

Additional observations from a re-analysis of the deposited data

How the results depend on the processing

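No paired analysis was possible because the library columns are fitted values without replicate variation. The main log2 ratios were 0.06 for the summed 10 genes, 0.41 for their median and 0.91 for the nuclear median, with 1 gene at least 2-fold higher and 0 lower. By totals of all genes these were 2.60, 2.94 and 3.22, with 10 higher. By totals outside ribosomal RNA they were -0.23, 0.11 and 0.63, with 0 higher. Without the genes beside ribosomal RNA they were -1.16, -0.81 and -0.26, with 0 higher and 3 lower. By nuclear protein-coding totals they were -0.93, -0.58 and -0.039, with 0 higher and 2 lower. Scales added after seeing the data gave -0.17, 0.18 and 0.69 with 0 higher (median ratio of genes at 100 fitted reads or more in both groups), 0 higher at 50 fitted reads or more, and 0.47, 0.82 and 1.31 (both mitochondrial rRNA genes). ND3 is the gene that crossed 2-fold, and it was at -0.18 without the genes beside ribosomal RNA. The nuclear median was 0.31 without a pseudocount, 0.52 with 5 fitted reads added and 1.16 with at least 10 fitted reads in a group. At 4-fold 0 genes were higher. Leaving out 1 library moved the summed ratio between -0.13 and 0.22, the median between 0.22 and 0.56, the genes at least 2-fold higher between 0 (any alg-2(ok304) library) and 1 (any wild-type library) and the nuclear median between 0.72 and 1.05. With proportional columns this changes which genes reach the minimum and the weight of the pseudocount, and it says nothing about replicate error. Values were counted as moved past 0.1 log2 units or 1.5-fold for counts. Shares of the 10 genes, their order per kb and the mitochondrial to nuclear sums use no scale between groups.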
